A study of Mus musculus with 13 samples.

Results

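The 42 genes described here encode nuclear subunits of the mitochondrial complexes II to V. Cox7a2l, a factor for joining complexes, is counted with complex IV by its symbol. They are all rows among the 14911 measured genes whose symbols carry the stems of these subunits: Sdha to Sdhd, Uqcr, Cox4 to Cox8 and Atp5. They comprise 3 genes of complex II, 7 of complex III, 15 of complex IV and 17 of complex V. Sdhd, Uqcr11 and Cox7a2 are not analysed here, and cytochrome c1 (Cyc1) falls outside the symbol rule. Complex II, succinate dehydrogenase, passes electrons from the citrate cycle to ubiquinone, complex III passes them on to cytochrome c, and complex IV, cytochrome c oxidase, gives them to oxygen. Complex V, the ATP synthase, uses the resulting proton gradient to make ATP. Complex IV is known for paired tissue forms: heart and skeletal muscle use Cox6a2, Cox7a1 and Cox8b, whereas most other tissues use Cox6a1, Cox7a2 and Cox8a. Skeletal muscle fibres are rich in mitochondria, and regenerating fibres rebuild them as they mature.

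Whole injured hamstring muscle was profiled in female C57BL/6 mice on day 4 after an intramuscular injection of cardiotoxin, a venom component that kills muscle fibres, at 0.32 mg/kg. In the dexamethasone group, 9 mice received this synthetic glucocorticoid daily at 10 mg/kg into the abdomen, and 4 mice in the saline group received saline in the same way. No genetic change is named for either group, and both groups carried the injury. Bone had formed in the injured muscle of every dexamethasone mouse, and the submitters excluded a saline mouse for bone, so drug treatment and bone formation cannot be told apart. Each library came from a separate mouse.

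Promoters are shown first, for the muscle isoforms Cox7a1 and Cox8b, the ubiquitous isoforms Cox8a and Cox6a1, and Atp5k. Cox7a1 had the deepest fall of the set, Cox8a and Cox6a1 the smallest changes, and Atp5k the largest fall in complex V. The change of Cox8b lay inside that range. These members were picked after their values were seen. Each run holds 250 bases before the RefSeq start and 20 after it, written in the direction of the gene, from RefSeq on GRCm38.p6, the assembly behind mm10. Cox7a1 lies at chr7:30183921-30184190 on the plus strand. The others lie on the minus strand, Cox8b at chr7:140900427-140900696, Cox8a at chr19:7217597-7217866, Cox6a1 at chr5:115348939-115349208 and Atp5k at chr5:108434380-108434649. Capitals mark matches on either strand to an NRF1 core (GCGCNTGCG) or an ETS core (CCGGAAG), the kinds of site through which NRF1 and GABP are known to act on many respiratory genes.
Cox7a1: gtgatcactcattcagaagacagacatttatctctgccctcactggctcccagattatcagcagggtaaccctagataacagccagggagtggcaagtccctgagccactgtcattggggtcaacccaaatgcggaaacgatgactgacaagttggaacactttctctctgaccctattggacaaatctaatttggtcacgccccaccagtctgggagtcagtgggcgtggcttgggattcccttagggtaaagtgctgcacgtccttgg
Cox8b: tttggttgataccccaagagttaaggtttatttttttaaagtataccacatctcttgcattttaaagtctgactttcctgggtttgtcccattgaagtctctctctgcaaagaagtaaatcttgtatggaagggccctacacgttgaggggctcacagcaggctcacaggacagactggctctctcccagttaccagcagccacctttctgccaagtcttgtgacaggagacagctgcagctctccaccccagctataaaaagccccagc
Cox8a: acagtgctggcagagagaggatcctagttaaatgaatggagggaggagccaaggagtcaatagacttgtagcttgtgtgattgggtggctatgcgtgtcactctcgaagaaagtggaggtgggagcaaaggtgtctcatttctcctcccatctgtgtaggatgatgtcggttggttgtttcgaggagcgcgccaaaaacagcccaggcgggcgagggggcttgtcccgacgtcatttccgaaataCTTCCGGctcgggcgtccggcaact
Cox6a1: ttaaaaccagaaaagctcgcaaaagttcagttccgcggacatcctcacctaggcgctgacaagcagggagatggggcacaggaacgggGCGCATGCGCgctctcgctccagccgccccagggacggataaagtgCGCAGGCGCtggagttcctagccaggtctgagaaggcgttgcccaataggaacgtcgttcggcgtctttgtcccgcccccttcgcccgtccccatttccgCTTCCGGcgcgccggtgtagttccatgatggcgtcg
Atp5k: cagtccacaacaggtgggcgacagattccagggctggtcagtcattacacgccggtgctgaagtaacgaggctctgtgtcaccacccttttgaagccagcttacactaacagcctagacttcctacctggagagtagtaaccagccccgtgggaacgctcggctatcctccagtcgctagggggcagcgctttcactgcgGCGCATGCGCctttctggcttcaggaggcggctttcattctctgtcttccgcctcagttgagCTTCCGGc
In these windows the muscle isoforms Cox7a1 and Cox8b held no match. Cox6a1 held NRF1 cores and an ETS core, Cox8a an ETS core, and Atp5k both kinds. A lack of matches was not particular to muscle isoforms. Of the 32 members with a RefSeq promoter, 11 held none of the motifs counted below, Cox5a, Cox5b and Atp5b among them. The muscle isoform Cox6a2 had no promoter window here. A match is a run of letters and not a bound site.

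The libraries gave 28021111 to 34942266 recovered reads in dexamethasone mice and 25531487 to 32537345 in saline mice. The tissue carried the transcripts of skeletal muscle: skeletal actin Acta1 averaged 14.60 ± 0.17 log2 CPM in dexamethasone libraries (SD, n = 9) and 15.10 ± 0.21 in saline libraries (SD, n = 4). CPM is a read count per gene scaled to a common library size, by the authors, and is given on the log2 scale. The 42 members together took 0.994% to 1.10% of reads, with a median of 1.07%, in dexamethasone libraries, and 1.32% to 1.37% in saline libraries. Complex V alone took 0.584% ± 0.023 of reads in dexamethasone libraries and 0.742% ± 0.016 in saline libraries (SD, n = 9 and 4). These shares did not overlap between the groups.

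Transcripts of complexes II to V were lower in dexamethasone muscle almost throughout. In a limma fit over all 14911 genes with Benjamini-Hochberg adjustment at 0.05, 39 of the 42 members fell and 0 rose, where 22.9% of all genes fell and 25.2% rose. The median change of the members was -0.48 on the log2 scale, against 0.01 for all genes, and the called members were 17.9% to 46.0% lower, with a median of 28.8%. In 37 members every dexamethasone library lay below every saline library, which held for 12.9% of all genes. The exceptions to that separation were Cox4i2, Cox6a1, Cox6a2, Cox6b2 and Cox8a, all isoforms of complex IV. In whole tissue, fewer muscle fibres and less of these transcripts per fibre cannot be told apart. With libraries scaled by their summed reads alone, the median of all genes moved to 0.12 and calls split into 2001 lower and 5256 higher, against 3413 lower and 3760 higher above. The members then had a median of -0.37, with 38 called lower and 0 higher. In the authors' deposited table, 39 of the 42 members had an adjusted p under 0.05.

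**Figure D1:**
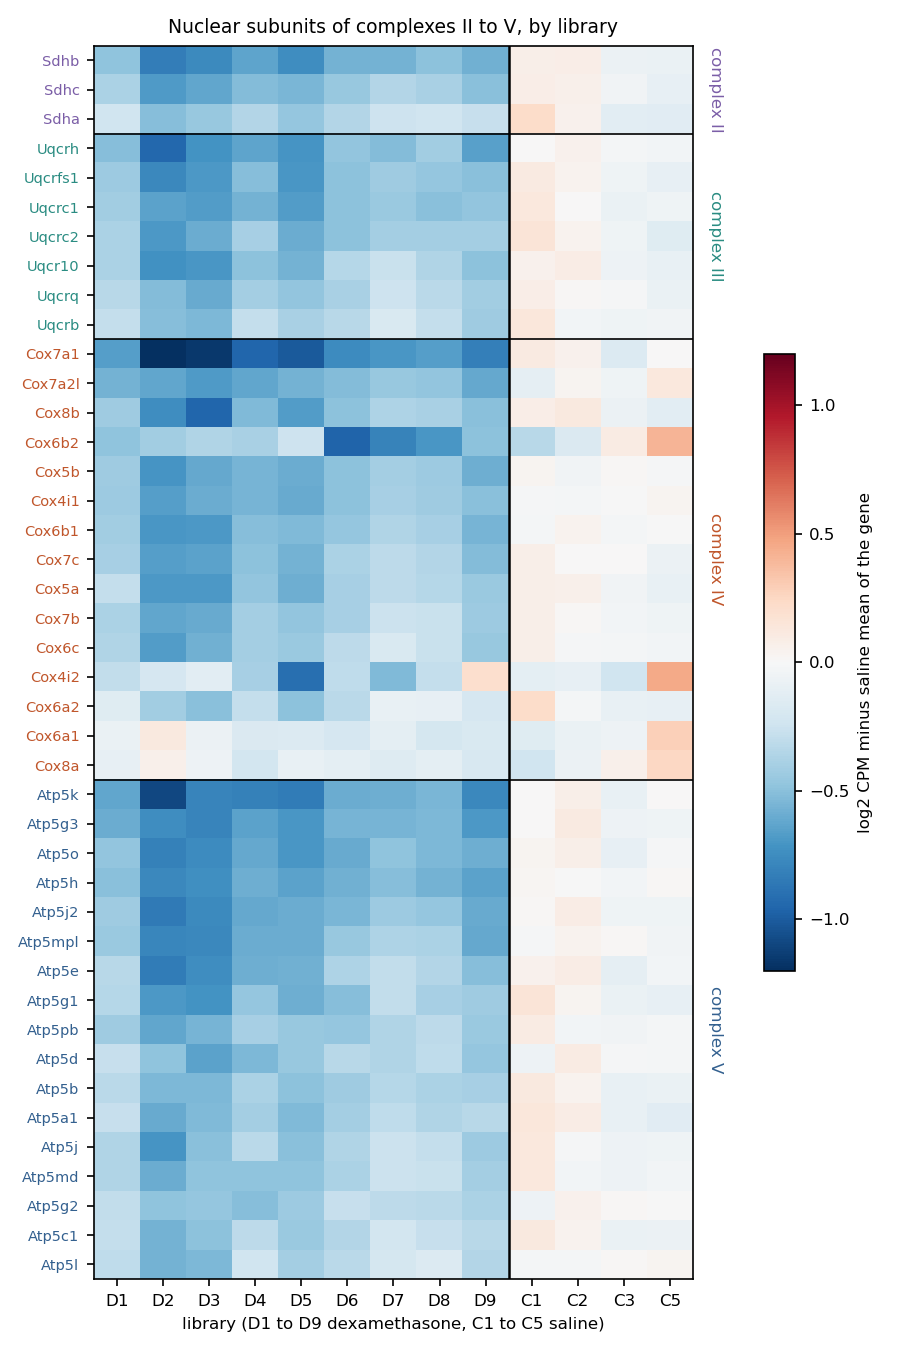
Heat map of the 42 subunits (rows, grouped by complex and ordered by change) in 9 dexamethasone libraries (D1 to D9, left) and 4 saline libraries (C1 to C5, right), coloured by log2 CPM minus the saline mean of the gene. Nearly every row is lower in all dexamethasone libraries, Cox7a1 most deeply by 0.89 on average, while Cox6a1 and Cox8a lie closest to their saline means.

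All members of complex II fell, with a median change of -0.49. Sdhb (mm10 chromosome 4, 140961203 to 140979193), the iron-sulphur subunit that carries electrons out of the flavoprotein, had 7.47 to 7.81 log2 CPM with a median of 7.72 in dexamethasone libraries, against 8.37, 8.38, 8.23 and 8.22 in saline libraries. The groups were 0.41 log2 units apart at their nearest libraries. Sdhb was 1.55-fold lower (log2 change -0.63 ± 0.066, SE; adjusted p = 2.74e-06). Sdhc, a membrane anchor at the ubiquinone site, had 7.36 to 7.69 log2 CPM with a median of 7.54 in dexamethasone libraries and 8.11, 8.10, 7.99 and 7.94 in saline libraries, 1.41-fold lower (adjusted p = 1.46e-05). Sdha, the flavoprotein that oxidises succinate, changed least of the 3. It had 8.87 to 9.14 log2 CPM with a median of 9.03 in dexamethasone libraries, against 9.59, 9.42, 9.25 and 9.23 in saline libraries, and was 1.27-fold lower (adjusted p = 0.00134). The Sdha groups came closer together, with saline mouse 5 at 9.23 and the highest dexamethasone mouse at 9.14.

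All 7 members of complex III fell, with changes of -0.62 to -0.36 and a median of -0.49. Uqcrc1, a core protein on the matrix side, had 8.46 to 8.71 log2 CPM with a median of 8.62 in dexamethasone libraries and 9.26, 9.13, 9.05 and 9.08 in saline libraries. It was 1.46-fold lower (adjusted p = 5.27e-06). The hinge protein Uqcrh, which sits between cytochrome c1 and cytochrome c, had the deepest fall of the complex. Its dexamethasone libraries had 7.23 to 7.75 log2 CPM with a median of 7.54, and its saline libraries had 8.18, 8.22, 8.15 and 8.14, a 1.54-fold lower level (adjusted p = 1.25e-05). Saline libraries of Uqcrh spanned 0.09 log2 units and dexamethasone libraries 0.53. Uqcrfs1, the Rieske iron-sulphur protein that takes electrons from ubiquinol, had 7.58 to 7.92 log2 CPM with a median of 7.85 in dexamethasone libraries and 8.45, 8.39, 8.30 and 8.25 in saline libraries, 1.47-fold lower (adjusted p = 1.27e-05). Uqcrc2, Uqcrb, Uqcrq and Uqcr10 fell 1.28-fold to 1.40-fold. Cyc1, the cytochrome c1 of the same complex, which is no member, fell 1.55-fold (7.93 ± 0.12 log2 CPM in dexamethasone libraries and 8.56 ± 0.11 in saline libraries; adjusted p = 4.13e-06).

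Complex IV held both the deepest fall and the members that did not pass the test: 12 of 15 fell, with a median change of -0.48. Cox4i1, the ubiquitous form of subunit 4 that takes part in control of the enzyme by ATP, had 8.39 to 8.66 log2 CPM with a median of 8.55 in dexamethasone libraries and 9.05, 9.04, 9.05 and 9.09 in saline libraries. It was 1.43-fold lower (adjusted p = 2.67e-06). Cox5b, a zinc-binding subunit on the matrix side, had 7.35 to 7.65 log2 CPM with a median of 7.50 in dexamethasone libraries and 8.10, 8.02, 8.08 and 8.05 in saline libraries, 1.45-fold lower (adjusted p = 2.55e-06). Saline libraries spanned 0.05 log2 units for Cox4i1 and 0.07 for Cox5b, so the groups stood well apart. Cox7a2l is known as a factor for supercomplexes of complexes III and IV. What it does in this mouse strain was not examined. Cox7a2l had 6.27 to 6.50 log2 CPM with a median of 6.38 in dexamethasone libraries and 6.85, 6.98, 6.90 and 7.08 in saline libraries. It was 1.48-fold lower and had the smallest adjusted p of the complex (8.51e-07). Cox5a, Cox6b1, Cox6c, Cox7b and Cox7c fell 1.33-fold to 1.43-fold.

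**Figure D2:**
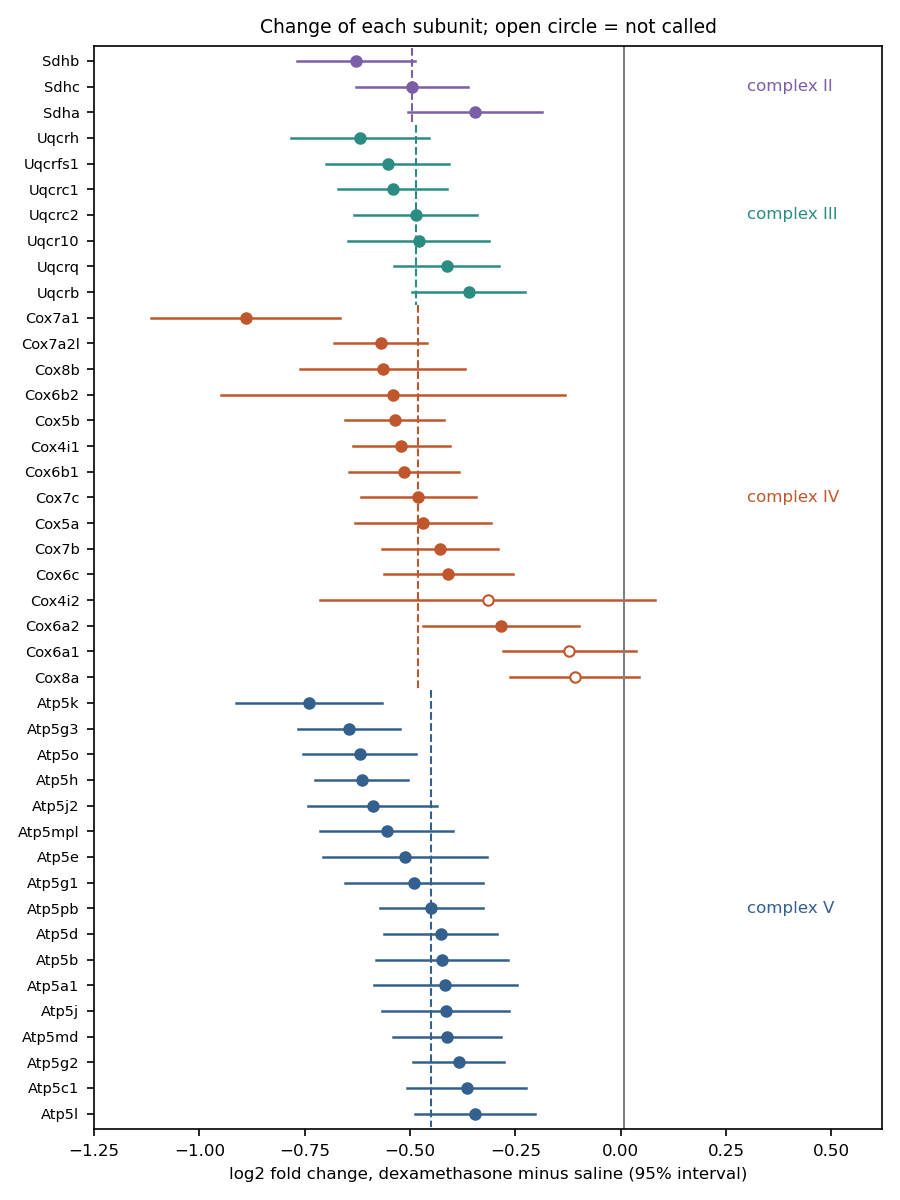
Log2 fold change of each subunit, dexamethasone minus saline, with its 95% interval from limma (9 and 4 libraries); filled circles passed an adjusted p of 0.05, open circles did not, dashed lines are medians of each complex, and the grey line is the median of all genes. The complex medians lie between -0.49 and -0.45, while complex IV spans -0.89 for Cox7a1 to -0.11 for Cox8a.

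The muscle isoforms of complex IV all fell, by different amounts, and the differences among their changes were not tested. Cox7a1 (chromosome 7, 30184144 to 30186078), the muscle form of subunit 7a, had the deepest fall of all 42 members. It had 5.26 to 5.88 log2 CPM with a median of 5.72 in dexamethasone libraries, against 6.65, 6.60, 6.38 and 6.54 in saline libraries. These ranges were 0.50 log2 units apart, and Cox7a1 was 1.85-fold lower (log2 change -0.89 ± 0.11, SE; adjusted p = 8.41e-06). Cox8b, the muscle form of subunit 8, had 6.30 to 6.88 log2 CPM with a median of 6.74 in dexamethasone libraries and 7.33, 7.36, 7.18 and 7.12 in saline libraries. It was 1.48-fold lower (adjusted p = 0.000145). Cox6a2 (chromosome 7, 128205435 to 128206387), the muscle form of subunit 6a, changed least of the 3. It had 8.44 to 8.85 log2 CPM with a median of 8.65 in dexamethasone libraries and 9.16, 8.92, 8.85 and 8.84 in saline libraries. The 2 highest dexamethasone libraries reached the lower saline ones, and Cox6a2 was 1.22-fold lower (log2 change -0.28 ± 0.088, SE; adjusted p = 0.014). Without saline mouse 1, the change of Cox6a2 was -0.21 with an adjusted p of 0.0658, which no longer passes.

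The ubiquitous isoforms of subunits 6a and 8 did not pass the test. Cox6a1 (chromosome 5, 115345642 to 115348981) had 6.24 to 6.57 log2 CPM with a median of 6.29 in dexamethasone libraries, against 6.31, 6.37, 6.39 and 6.74 in saline libraries. The libraries overlapped, and the change of -0.12 had a 95% interval of -0.28 to 0.04 (adjusted p = 0.191). Cox8a (chromosome 19, 7215153 to 7217616) had 6.16 to 6.44 log2 CPM with a median of 6.26 in dexamethasone libraries and 6.14, 6.31, 6.44 and 6.63 in saline libraries. Its lowest library was a saline one, and the change of -0.11 had an interval of -0.26 to 0.04 (adjusted p = 0.226). With libraries scaled by summed reads the change of Cox8a was 0.01, and without saline mouse 1 it was -0.19 with an adjusted p of 0.0306. Saline mouse 5 was the highest saline library for both genes and dexamethasone mouse 2 the highest dexamethasone library. Without saline mouse 5 the changes of Cox6a1 and Cox8a were both -0.03.

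Within-library ratios, in which library scaling cancels, set these members against each other. The ratio of Cox8b to Cox8a, as a difference of log2 CPM, was -0.02 to 0.66 in dexamethasone libraries and 1.19, 1.06, 0.74 and 0.50 in saline libraries. It was lower by 0.46 on average (exact permutation test over all splits into 9 and 4, two-sided, p = 0.0196; adjusted over 6 pairs, 0.0448). Only 4 of 9 dexamethasone libraries lay below every saline library, and the adjusted p was above 0.05 in 12 of 13 fits with 1 library left out, which also raises the smallest p such a test can give. The ratio of Cox6a2 to Cox6a1 was 1.96 to 2.61 in dexamethasone libraries and 2.85, 2.54, 2.46 and 2.10 in saline libraries, a difference of -0.16 (exact permutation, adjusted p = 0.294). Per kilobase of transcript, Cox8b made up 67.0% ± 3.9 of the Cox8 isoforms in dexamethasone libraries and 73.5% ± 4.3 in saline libraries (SD, n = 9 and 4). Cox6a2 made up 80.7% ± 2.4 of the Cox6a isoforms in dexamethasone libraries and 82.3% ± 3.1 in saline libraries. The muscle forms were thus the larger part of both pairs in both groups. The pair of Cox7a1 with Cox7a2 was not tested.

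Ratios to Cox4i1 were added after the values of Cox6a1, Cox8a and Cox7a1 had been seen, and are given with no test since these 3 members were picked for their distance from the rest. Cox8a relative to Cox4i1 was -2.43 to -1.96 in dexamethasone libraries and -2.91, -2.73, -2.62 and -2.46 in saline libraries. All 9 dexamethasone libraries lay above every saline library, by 0.41 on average. Cox6a1 relative to Cox4i1 was -2.39 to -1.82 in dexamethasone libraries and -2.74, -2.66, -2.67 and -2.35 in saline libraries, higher by 0.40 with 8 of 9 dexamethasone libraries above every saline library. Cox7a1 relative to Cox4i1 was -3.14 to -2.74 in dexamethasone libraries, against -2.40, -2.44, -2.68 and -2.55 in saline libraries, a difference of -0.37 with no overlap.

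**Figure D3:**
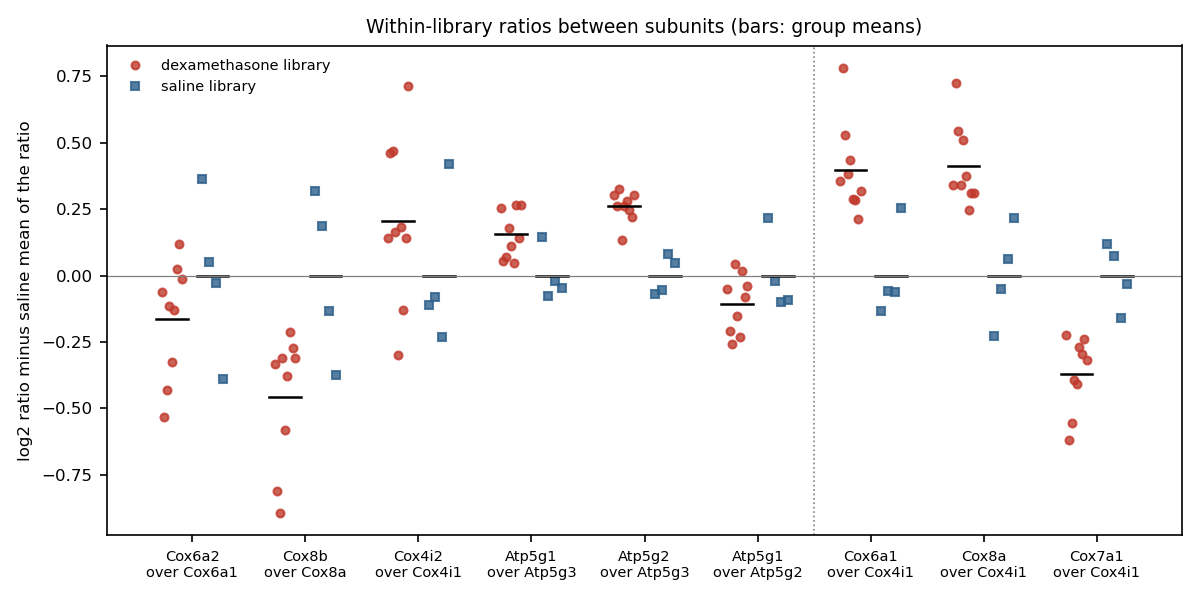
Within-library log2 ratios between subunits, each minus its saline mean, for 9 dexamethasone libraries (circles, left of each pair) and 4 saline libraries (squares), with bars at group means; the dotted line parts the 6 isoform pairs from the 3 ratios to Cox4i1 added later. Atp5g2 over Atp5g3 and Cox8a over Cox4i1 are higher in all 9 dexamethasone libraries, and Cox7a1 over Cox4i1 is lower in all 9.

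Cox4i2 and Cox6b2, minor isoforms of complex IV, had few reads in this muscle. Cox4i2, the form of subunit 4 known from lung and from cells at low oxygen, had 26 to 74 reads per library. It had -0.16 to 0.95 log2 CPM with a median of 0.44 in dexamethasone libraries and 0.62, 0.64, 0.50 and 1.19 in saline libraries, with overlap (log2 change -0.32, interval -0.71 to 0.08, adjusted p = 0.177). The ratio of Cox4i2 to Cox4i1 differed by 0.20 (exact permutation, adjusted p = 0.294). Cox6b2, known from testis, had the lowest level of the 42 members, with 16 to 47 reads per library. It had -0.83 to -0.11 log2 CPM with a median of -0.35 in dexamethasone libraries and -0.19, -0.03, 0.23 and 0.54 in saline libraries. The change of -0.54 (adjusted p = 0.0294) rested on few reads and had adjusted p-values of 0.0746 without saline mouse 3 and 0.121 without saline mouse 5.

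All 17 members of complex V fell, with a median change of -0.45, and in each of them the groups did not overlap. By part of the enzyme, the median change was -0.42 over the 5 genes of the catalytic F1 head, -0.49 over the 3 genes of the c ring, -0.53 over the 4 genes of the peripheral stalk and -0.56 over the 5 small membrane subunits. Atp5b (chromosome 10, 128083273 to 128090391), the catalytic beta subunit, was the most abundant member. It had 10.69 to 10.91 log2 CPM with a median of 10.83 in dexamethasone libraries and 11.35, 11.28, 11.15 and 11.16 in saline libraries, 1.34-fold lower (adjusted p = 0.000244). Its partner in the head, the alpha subunit Atp5a1, was 1.33-fold lower (adjusted p = 0.000527). Atp5c1, Atp5d and Atp5e, the gamma, delta and epsilon subunits of the rotor stalk, fell 1.29-fold to 1.43-fold.

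The stator of complex V, the peripheral stalk that holds the head against rotation, had 2 of the 3 smallest adjusted p-values of the complex. Atp5h, subunit d of the stalk, had 7.02 to 7.30 log2 CPM with a median of 7.20 in dexamethasone libraries, against 7.82, 7.79, 7.76 and 7.81 in saline libraries. It was 1.53-fold lower and had the smallest adjusted p of all 42 members (3.83e-07). Atp5o, the oligomycin-sensitivity protein that caps the stalk, had 7.76 to 8.09 log2 CPM with a median of 7.96 in dexamethasone libraries and 8.60, 8.64, 8.47 and 8.55 in saline libraries, 1.54-fold lower (adjusted p = 2.28e-06). The other stalk genes, Atp5pb and Atp5j, fell less, by 1.37-fold and 1.33-fold. Among the small membrane subunits, which join the enzyme into dimers, Atp5k (subunit e) had the deepest fall of complex V. It had 6.00 to 6.55 log2 CPM with a median of 6.32 in dexamethasone libraries and 7.10, 7.17, 7.01 and 7.10 in saline libraries, 1.67-fold lower (log2 change -0.74 ± 0.082, SE; adjusted p = 4.42e-06). Atp5l (subunit g), a neighbour of subunit e in the enzyme, changed least in the complex and was 1.27-fold lower (adjusted p = 0.000586).

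The c ring turns as protons pass, and Atp5g1, Atp5g2 and Atp5g3 encode the same mature c subunit behind different targeting peptides. Atp5g3, the most abundant, had 8.18 to 8.43 log2 CPM with a median of 8.33 in dexamethasone libraries and 8.98, 9.08, 8.91 and 8.92 in saline libraries, 1.56-fold lower (adjusted p = 5.69e-07). Atp5g1 had 6.96 to 7.39 log2 CPM with a median of 7.22 in dexamethasone libraries and 7.83, 7.71, 7.60 and 7.58 in saline libraries, 1.41-fold lower (adjusted p = 0.000105). Atp5g2 had 5.89 to 6.12 log2 CPM with a median of 6.01 in dexamethasone libraries and 6.34, 6.45, 6.42 and 6.39 in saline libraries, 1.31-fold lower (adjusted p = 2.27e-05). All 3 fell without overlap, Atp5g3 the most.

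The balance among the c-subunit genes differed between groups. The log2 ratio of Atp5g2 to Atp5g3 was -2.44 to -2.24 in dexamethasone libraries and -2.64, -2.63, -2.49 and -2.53 in saline libraries. It was higher by 0.26, with all 9 dexamethasone libraries above every saline library (exact permutation p = 0.0028, the smallest this design allows; adjusted over 6 pairs, 0.0168). Without saline mouse 2 or without saline mouse 3 the ratio was still higher by 0.24 and 0.29, with an adjusted p of 0.0545, and with 3 saline libraries the exact p cannot go below 0.00909. Atp5g1 relative to Atp5g3 was higher by 0.15 (exact permutation, adjusted p = 0.0448; 4 of 9 dexamethasone libraries above every saline library; adjusted p above 0.05 in 12 of 13 fits with 1 library left out), and Atp5g1 relative to Atp5g2 differed by -0.11 (adjusted p = 0.294). Per kilobase, Atp5g3 supplied 57.4% ± 1.1 of c-subunit transcripts in dexamethasone libraries and 60.4% ± 1.2 in saline libraries, and Atp5g2 supplied 11.3% ± 0.5 in dexamethasone libraries and 9.94% ± 0.58 in saline libraries (SD, n = 9 and 4). A form of Atp5g1 far longer than the one used for its length is also annotated. Each share is taken of the sum over all c-subunit genes, so the shares of Atp5g3 and Atp5g2 are uncertain too. These genes, like many respiratory genes, have near-identical processed copies in the mouse genome, and how reads shared between copies were counted is not given in the sources used here.

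Per kilobase of transcript, 39 of the 41 members with an annotated length lay between 59.0 and 937 RPKM in dexamethasone libraries and between 83.0 and 1258 in saline libraries. The lower bounds are those of Sdhc, whose transcript length is uncertain, as is that of Uqcrq. RPKM is CPM divided by the transcript length in kilobases. Atp5b led with 937 ± 52 RPKM in dexamethasone libraries and 1258 ± 86 in saline libraries (SD, n = 9 and 4). Cox6a2 followed at 598 ± 66 RPKM in dexamethasone libraries and 727 ± 78 in saline libraries. Its saline level lay within the spread of Atp5a1, Cox4i1 and Atp5g3, at 717 ± 64, 716 ± 12 and 703 ± 39 RPKM, so these neighbours in the order do not differ beyond their SDs. Cox6a1 and Cox8a, at 141 ± 11 and 140.3 ± 8.2 RPKM in dexamethasone libraries and 154 ± 22 and 152 ± 22 in saline libraries, stood near the low end. Cox7a1 had 129 ± 19 RPKM in dexamethasone libraries, within the SDs of Cox6a1 and Cox8a, and 238 ± 19 in saline libraries, above both by more than their SDs. Across the 42 members the change did not follow the saline level (Spearman rho of -0.12 over genes, which share libraries and are no replicates).

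**Figure D4:**
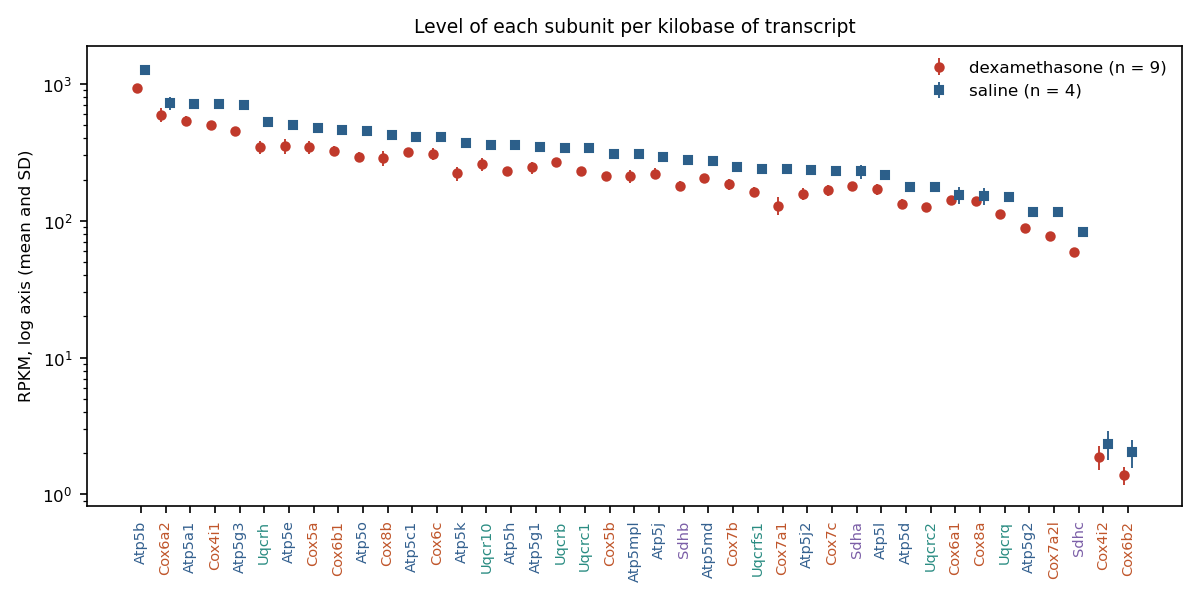
Level of 41 subunits per kilobase of transcript (RPKM, log axis) in 9 dexamethasone libraries (circles, left) and 4 saline libraries (squares), as means with SD, ordered by saline level, with gene names coloured by complex as in the plot of changes. Atp5b is highest at 937 and 1258 RPKM, and Cox4i2 and Cox6b2 lie between 1.38 and 2.34 RPKM, far below all others.

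The lowest and highest dexamethasone libraries were often from the same mice. Dexamethasone mouse 2 was the lowest dexamethasone library for 26 members and mouse 3 for 10, while mouse 7 was the highest for 20 members and mouse 1 for 10. Relative to the saline means, the median member stood at -0.66 in dexamethasone mouse 2 and -0.62 in mouse 3, against -0.35 in mouse 7, -0.37 in mouse 8 and -0.38 in mouse 1. Among saline mice the median member lay between -0.05 and 0.07. Cox6a1 and Cox8a went against this order, since both were highest in dexamethasone mouse 2. Dexamethasone mice 2 and 3 also had the lowest means of the mature fibre markers, at 11.38 and 11.51 log2 CPM, against 11.54 to 11.84 in the other dexamethasone libraries. The part of fibre content in this order was not tested.

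Transcripts of most measured partners and assembly factors of these complexes were lower too. Of the 5 measured partners outside the symbol rule, 4 fell and 0 rose, where 22.9% of all genes fell and 25.2% rose. Besides Cyc1, cytochrome c itself (Cycs), which ferries electrons to complex IV, had 6.13 ± 0.21 log2 CPM in dexamethasone libraries and 6.58 ± 0.25 in saline libraries (adjusted p = 0.00442). Ndufa4, a subunit found with complex IV, was 1.24-fold lower (adjusted p = 0.000927), and Atpif1, the inhibitor of ATP hydrolysis by complex V, 1.21-fold lower (adjusted p = 0.0124). Ndufa4l2, a relative of Ndufa4 known from low oxygen, had 3.33 ± 0.17 log2 CPM in dexamethasone libraries and 3.45 ± 0.19 in saline libraries (adjusted p = 0.343). Assembly factors had median changes of -0.27, -0.41, -0.30 and -0.30 for complexes II, III, IV and V. For complex II, 3 of 4 fell, led by Sdhaf4, which helps the flavin-bearing subunit into the complex (1.53-fold lower, adjusted p = 4.94e-05). For complex III, 5 of 6 fell, led by Uqcc3 and Uqcc2, which act with cytochrome b (adjusted p = 4.88e-05 and 6.95e-05). For complex IV, 18 of 23 fell and 0 rose. Cox14 was the leading factor there, at 5.64 ± 0.11 log2 CPM in dexamethasone libraries and 6.27 ± 0.08 in saline libraries. For complex V, 5 of 6 fell, led by Oxa1l, which inserts proteins into the inner membrane, with 5.86 ± 0.07 log2 CPM in dexamethasone libraries and 6.21 ± 0.01 in saline libraries. The differences between subunits and assembly factors were not tested.

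Complex I and the citrate cycle showed the same direction. The counts here stand beside 22.9% of all genes that fell and 25.2% that rose. Of 36 complex I genes 34 fell, with a median change of -0.47, close to the -0.48 of complexes II to V. Of 14 citrate cycle genes 13 fell, with a median of -0.33, led by Dlst, Mdh2 and Idh3a with changes of -0.42, -0.51 and -0.57. Of 77 mitochondrial ribosomal proteins 65 fell, with a median of -0.30. Of 18 genes of the outer membrane and protein import 11 fell, with a median of -0.22. Vdac2, a pore of the outer membrane, had 7.81 ± 0.06 log2 CPM in dexamethasone libraries and 8.12 ± 0.05 in saline libraries. Timm44, which tethers the import motor, led that list (5.68 ± 0.08 log2 CPM in dexamethasone libraries and 6.14 ± 0.12 in saline libraries). Those lists were chosen with earlier results of these data known, and the difference between lists carries no test.

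**Figure D5:**
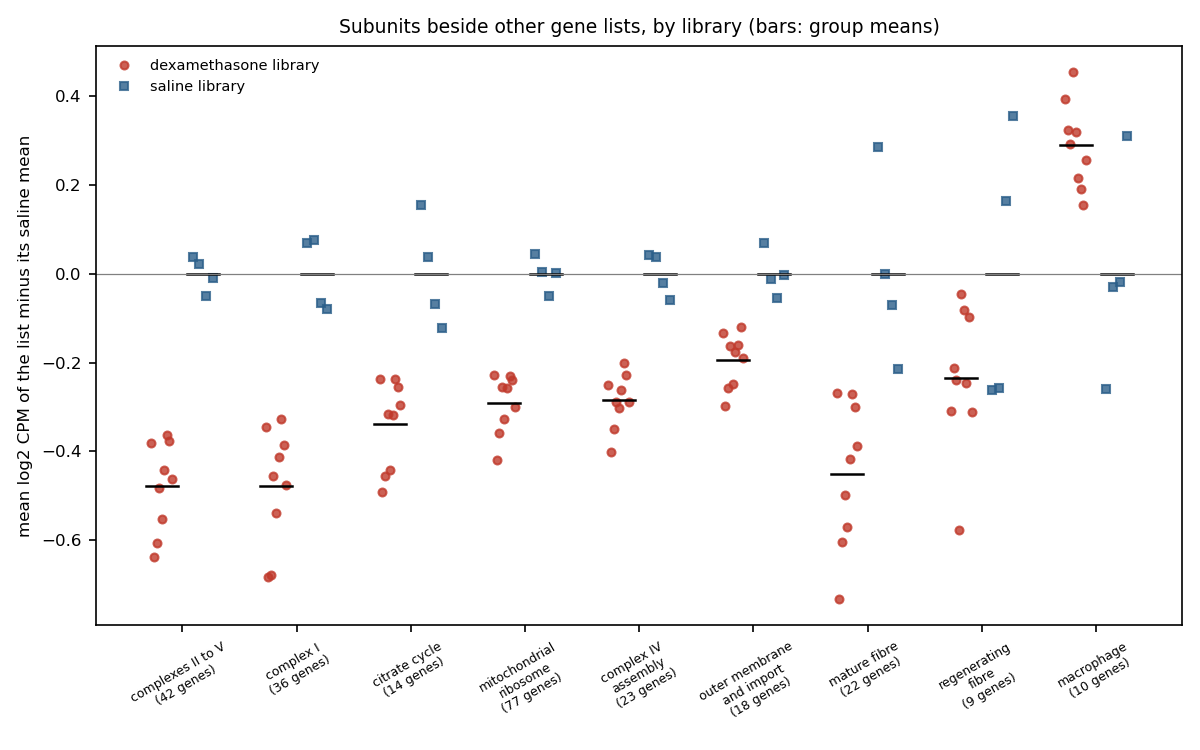
Mean log2 CPM of each gene list in each library, minus the saline mean of the list, for 9 dexamethasone libraries (circles, left) and 4 saline libraries (squares), with bars at group means. Complexes II to V, complex I, citrate cycle, ribosome, assembly, import and mature fibre lists lie below every saline library in all dexamethasone mice, while regenerating fibre and macrophage lists overlap.

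Among 17 regulators of mitochondrial biogenesis 6 fell and 2 rose, where 22.9% of all genes fell and 25.2% rose, with a median change of -0.12. That count is not far from the share over all genes, and the regulators named next are those with the smallest adjusted p. Ppargc1a, the coactivator PGC-1alpha that drives respiratory genes in muscle, had 3.98 ± 0.20 log2 CPM in dexamethasone libraries and 4.99 ± 0.29 in saline libraries (adjusted p = 8.82e-06). Esrra, the nuclear receptor it acts through, had 5.92 ± 0.12 log2 CPM in dexamethasone libraries and 6.43 ± 0.08 in saline libraries (adjusted p = 1.57e-05). Pprc1, a related coactivator, rose to 6.07 ± 0.17 log2 CPM in dexamethasone libraries, against 5.42 ± 0.12 in saline libraries (adjusted p = 1.82e-05). The other rise was that of Nrf1, by 0.14 (adjusted p = 0.0375; named after its values were seen), which encodes the factor of the NRF1 core.

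In promoter windows of 250 bases before and 50 after the start, the NRF1 core occurred in 13 of the 32 members with a RefSeq promoter. It occurred in 37.1% of the 35 windows of members, 11.6% of 14945 windows of measured genes and 6.31% of all 32851 windows. The NRF1 core can match both strands 1 base apart at a single place, as in Atp5k; matches to different motifs did not overlap in members. The ETS core occurred in 11 members (31.4% of their windows, 15.4% of measured windows and 8.86% of all windows). The ERR element AAGGTCA was found in 4 members (11.4% of member windows, 3.30% of measured windows and 4.72% of all windows), and the YY1 core AAGATGGC in 3 (8.57% of member windows, 3.85% of measured windows and 2.75% of all windows). The MEF2 forms TATTTATA and TATTTTTA and the loose glucocorticoid core ACANNNTGT had no match in any member window, where 1.05%, 1.37% and 4.57% of measured windows held them and 1.70%, 2.72% and 6.85% of all windows. Median GC content was 56.3% in windows of members and 60.0% in measured windows. Members with an NRF1 core had a median change of -0.43 (13 genes) and those without it -0.51 (19 genes). For the ETS core these medians were -0.51 (11 genes) and -0.49 (21 genes). They were -0.58 (4 genes) and -0.49 (28 genes) for the ERR element, and -0.45 (3 genes) and -0.51 (29 genes) for the YY1 core. These differences were not tested. The 42 genes lay on 18 chromosomes.

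Markers of muscle fibres and other cells are given for the same libraries, where 22.9% of all genes fell and 25.2% rose. Of 22 mature fibre markers 10 fell and 0 rose, with a median change of -0.39. Their summed level was 16.77 to 17.32 in dexamethasone libraries and 17.31 to 17.90 in saline libraries on the log2 CPM scale. Casq1, the calcium store of the fibre, fell by 0.96 on the log2 scale and Eno3 by 0.92. Of 9 markers of regenerating fibres 3 fell and 3 rose, with summed levels of 11.55 to 12.22 in dexamethasone libraries and 13.10 to 13.24 in saline libraries. These sums are dominated by abundant genes, chiefly cardiac actin Actc1 (9.74 log2 CPM in dexamethasone libraries and 12.20 in saline libraries), while the median change of the list was -0.01 and the means of the list overlapped between the groups. The genes of this list that fell were Actc1 and the myosin genes Myh8 and Myh3, while Ncam1, Myod1 and Mymx rose. Of 10 macrophage markers 4 rose and 1 fell, with summed levels of 11.14 to 11.58 in dexamethasone libraries and 10.88 to 11.41 in saline libraries. All 9 lymphocyte markers fell, with summed levels of 2.30 to 3.85 in dexamethasone libraries and 5.22 to 5.76 in saline libraries. Of 5 brown fat markers 2 rose and 0 fell, with summed levels of 8.88 to 9.91 in dexamethasone libraries and 8.58 to 9.27 in saline libraries. The rises were those of Adipoq and Plin1. Elovl3, Cidea and Fabp4 were not called, with log2 changes of -0.54, -0.24 and 0.29. Of 3 cardiac markers 1 fell and 0 rose, with summed levels of 1.39 to 2.14 in dexamethasone libraries and 1.87 to 2.50 in saline libraries. Of 8 markers of pericytes and smooth muscle 2 rose and 0 fell, with summed levels of 9.79 to 10.03 in dexamethasone libraries and 9.73 to 9.98 in saline libraries. The counts for regenerating fibres, brown fat, cardiac and pericyte markers were near the shares over all genes or rested on few genes. Ucp1, Nppa and Myl7 are not analysed here. Saline mouse 5, in which Cox6a1 and Cox8a were highest, had the highest macrophage mean of the saline libraries (7.12 log2 CPM, against 6.55 to 6.79 in the others). It also had their highest mean of regenerating fibre markers (8.66) and their lowest mean of mature fibre markers (11.90). Dexamethasone mouse 4 had the highest macrophage mean of all libraries (7.27), yet the lowest Cox8a of the dexamethasone libraries (6.16 log2 CPM). The part of cell content in the results on these subunits was not tested.

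When the mean of the mature fibre markers entered the fit as a covariate, 27 of 42 members were called lower and the median change was -0.27. Of all genes, 9.70% were called lower in that fit, against 22.9% without the covariate. Cox6a1 and Cox8a were then called lower (log2 changes of -0.36 for each, adjusted p = 0.0164 and 0.00814), and Cox6a2 had a change of 0.08 (adjusted p = 0.481). With the mean of the outer membrane and import list instead, 8 members were called lower and the median was -0.20, where 4.44% of all genes were called lower. The mean of either list was lower in every dexamethasone library than in any saline library, so these covariates and the treatment are largely confounded.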

How the data were processed

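Stranded libraries were made from poly(A)-selected RNA, per the labels' protocols, with 1 library per mouse from 9 dexamethasone and 4 saline mice. Reads were counted with featureCounts 2.0.1 on mm10 and handled with limma 3.50.1, per the submitters' processing notes; neither the aligner nor any low-expression filter is given in the sources used here. Deposited values are log2 CPM, computed from reads with 0.5 added and an effective library size, and gave back whole reads in 100% of values within 0.01. The authors' own log2 fold changes and p-values were also deposited. The table of 14911 genes without the excluded saline mouse was used, and the other table, of 14970 genes, was an alternative in which the 1 column of that mouse was not used.

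Expression was compared by a limma 3.58.1 fit (R 4.3.3) with an intensity trend, two-sided, Benjamini-Hochberg over all genes, called at an adjusted p under 0.05. Fold changes are differences of mean log2 CPM, so those of Cox4i2 and Cox6b2 depend on the 0.5 offset. Ratios between members were compared by exact permutation over all splits into 9 and 4 (scipy 1.17.1), adjusted over the 6 of 7 planned pairs that could be run. With 42 pairs of libraries of the same group compared, none were repeat deposits (chi-square per gene of at least 7.32). RPKM used the shortest principal transcript of GENCODE M21. Named members are the 3 of smallest adjusted p in each complex, all isoform pairs, the uncalled and the most and least abundant; other members are named to complete each complex, after their values were seen. Members and lists were chosen with earlier results of these data known. The steps were tested on simulated data. Alternatives were the other table, log2 of CPM plus 1, a low filter at a mean log2 CPM of 1, median centring, quantile normalisation, no trend, robust priors, library weights, voom, the mouse number as a block, 2 covariates, and libraries left out; scaling by summed reads and the ratios to Cox4i1 were added after seeing the data. Figures were drawn with matplotlib 3.10.9.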

Additional observations from a re-analysis of the deposited data

Results flagged for a closer look

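In 5 of 102 sets of values tested for a library standing apart, where chance gives about 1 in 20, a library lay away from the others of its group. Saline mouse 1 was high for Uqcrb at 7.65 log2 CPM, against 7.46 to 7.48 in the other saline libraries. It was also high for Cox6c at 7.75 (others 7.65 to 7.67), for Atp5pb at 8.96 (others 8.81 to 8.83) and for Atp5md at 6.75 (others 6.56 to 6.59). Dexamethasone mouse 2 was high for Cox6a1 at 6.57 log2 CPM, against 6.24 to 6.38 in the other dexamethasone libraries, while it was the lowest dexamethasone library for 26 members.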

How the results depend on the processing

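Of 1174 changes of single members under the alternatives, 1117 kept their direction and side of the threshold. A further 50 kept their direction but were no longer called, 3 became called and 4 turned direction. Those that turned were Sdha with 1 covariate and Cox6a2 with both covariates, which also lost their calls, and Cox8a. Cox8a was at 0.0061 with scaling by summed reads and was called neither there nor in the main fit. With 1 library left out, 38 to 39 members fell. With the mature fibre covariate, 3026 genes differed, 11 complex V members fell and Cox6a2 turned to 0.078. With the outer membrane and import covariate, 1344 genes differed, 8 members fell (1 of complex II, 1 of III, 3 of IV, 3 of V), and Sdha turned to 0.013 and Cox6a2 to 0.17. Both covariates follow treatment, and the cause of these losses was not tested. With the mouse number as a replicate block (8 numbered libraries), 38 members fell. The ratios were then -0.65 for Cox8b over Cox8a, 0.12 for Atp5g1 over Atp5g3 and 0.29 for Atp5g2 over Atp5g3 (adjusted p = 0.188 for each, by exact permutation; the smallest exact p is 0.125), and the same without the block (adjusted p = 0.137). The setting also holds fewer libraries, and why these calls were lost was not tested. Same-numbered libraries had correlations of -0.07 to 0.12, and only number 5 matched its own number best, so the numbers were not taken to pair mice. Without saline library 3 and dexamethasone library 4, these 3 ratios were -0.52, 0.14 and 0.30, none called. Quantile normalisation gave -0.42 for Cox8b over Cox8a and 0.11 for Atp5g1 over Atp5g3, not called. It also lowered Atp5g2 over Atp5g3 from 0.26 to 0.15, still called (exact permutation, adjusted p = 0.0336). With log2 of CPM plus 1, Cox4i2 over Cox4i1 was 0.33, called. The cause was not tested. With 1 library left out, these ratios ranged from -0.58 to -0.35 (Cox8b over Cox8a), 0.13 to 0.20 (Atp5g1 over Atp5g3), 0.24 to 0.29 (Atp5g2 over Atp5g3) and 0.13 to 0.34 (Cox4i2 over Cox4i1). Cox7a1 over Cox7a2 was not run, nor were ratios under alternatives that change only the model. Depth limits Cox4i2 and Cox6b2, with at most 74 and 47 reads per library.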
